A study of Rattus norvegicus with 4 samples.

Results

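The AP-1 transcription factors measured here are the 4 Fos genes (Fos, Fosb, Fosl1 and Fosl2), the 3 Jun genes (Jun, Junb and Jund) and Atf3. They were chosen by name, and all 8 were present among the 14410 genes of the deposited table and passed the filter on low values. Their messenger RNA was measured by RNA-seq in CG4, a rat oligodendroglial cell line that can be grown as progenitors or driven to form oligodendrocytes, the myelin-making cells of the central nervous system. Wild-type CG4 cells had received a retrovirus in which the broadly active CAG promoter drives either GFP alone (ctrl, 2 libraries) or Phf8 followed by GFP (Phf8oe, 2 libraries). GFP-positive cells of both groups were sorted 2 days after transduction, expanded as a mixed population and held under differentiating conditions for 3 days. The labels do not name the species of the Phf8 insert, and they call the libraries biological replicates without saying whether each came from its own transduction.

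AP-1 is a pair of basic leucine zipper (bZIP) proteins that grip each other through the zipper and bind DNA through the basic region. Fos proteins cannot pair with themselves and need a Jun partner, while Jun proteins can also pair among themselves, and Atf3 pairs with Jun proteins or with itself, in which case it often represses. Most of these genes are immediate early genes: growth factors, calcium and stress switch them on within minutes through MAP kinases, and their messenger RNAs decay fast. Jund is the exception, being made steadily in most resting cells. In progenitors of the oligodendrocyte lineage, mitogens that hold back differentiation are known inducers of Fos and Jun.

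Setting Phf8oe beside ctrl addresses the genes that respond to extra Phf8, a demethylase of histone lysines, as oligodendroglial cells differentiate. Of the 8 AP-1 genes, 6 fell in Phf8oe: Fos, Fosb, Fosl1, Fosl2, Jun and Junb, by 1.93-fold to 2.86-fold. Atf3 was lower by more, 3.78-fold, but its Phf8oe libraries lay too far apart for it to pass, and Jund differed by 1.04-fold, within the spread of its replicates. A gene was called changed at a Benjamini-Hochberg adjusted p under 0.05 over all 14368 genes tested with limma on log2(normalized count + 1), and by this rule 7.64% of all tested genes were called, 4.65% lower and 2.99% higher. An unadjusted p under 0.05 was reached by 3778 of the 14368 tested genes in the same fit. The median log2 fold change of the 8 genes was -1.32, against 0.003 over all tested genes. In 7 of the 8 the groups did not overlap, each time with Phf8oe lower, which held for 28.7% of tested genes (57.6% did not overlap in either direction). In bulk RNA, fewer cells that express a gene and less of its RNA per cell cannot be told apart.

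The calls depended on the libraries and on the variance model. Calls of the 8 genes were lost when either ctrl library was left out and kept when either Phf8oe library was. Over all tested genes, too, far fewer passed in the former fits and more in the latter. Such fits take their spread from the group that keeps 2 libraries. In them the log2 fold change of Fos ran from -1.8 to -1.15 and that of Jun from -1.36 to -0.86. With all 4 libraries kept, 0 were called with no variance trend (7 at an unadjusted p under 0.05), 2 with the replicate block and 6 with limma-voom. The fold changes themselves kept their sign whichever library was left out.

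**Figure D1:**
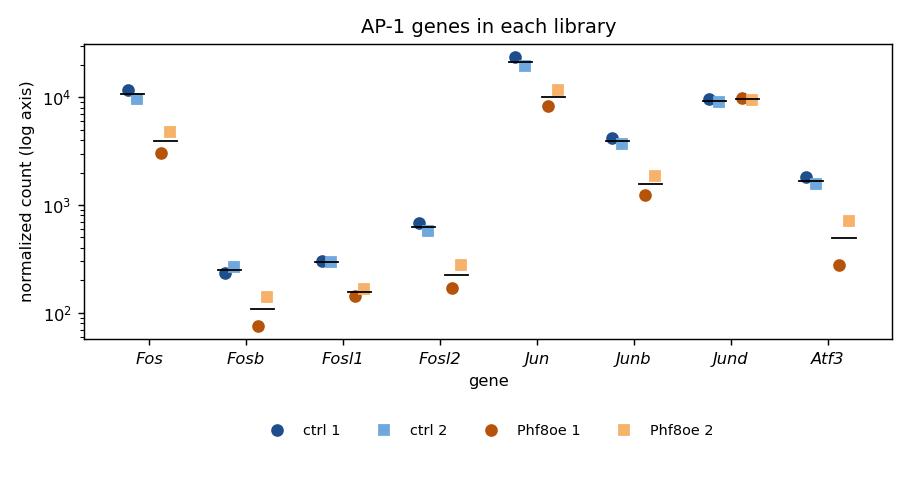
Normalized counts (log axis) of the 8 AP-1 genes in the 2 ctrl and 2 Phf8oe libraries; points are libraries and black lines are group means (n = 2). Both Phf8oe points lie under both ctrl points for 7 genes, and the points of Jund lie together.

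Depth and labels were looked at over the whole series. The deposited values of the 4 libraries stood for between about 28400000 and 47800000 reads, the fewest in Phf8oe replicate 2. Phf8 itself stood at 2026 and 2205 normalized counts in ctrl, against 5650 and 10796 in Phf8oe, so both libraries labelled Phf8oe held more Phf8, although its adjusted p was 0.0631. Of all tested genes, 430 were called higher and 668 lower, a split that became 614 and 598 with upper quartile scaling. Phf8oe and ctrl held 2 libraries each, so an exact permutation test of a single gene could not go under p = 0.333, and the p-values given measure the spread between these libraries only. Cells of both groups expressed oligodendrocyte genes: Mbp, a major myelin protein, stood at 184442 and 173338 normalized counts in ctrl, against 340486 and 308875 in Phf8oe.

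Fos, the founding member and the partner of Jun in classical AP-1, had normalized counts of 11584 and 9626 in ctrl, against 3022 and 4774 in Phf8oe. Every Phf8oe value was under every ctrl value, and the Phf8oe libraries differed from each other more than the ctrl libraries did. Fos fell 2.78-fold (log2 fold change -1.47, SE 0.24, adjusted p = 0.0321). Its call was also lost with the replicate number as a block.

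Fosl2, encoding Fra-2, a Fos relative without the strong activation domain of Fos, had 686 and 568 in ctrl and 170 and 278 in Phf8oe. The order of the 4 libraries was that of Fos. It had the smallest p of the 8 genes and fell 2.86-fold (log2 fold change -1.52, SE 0.25, adjusted p = 0.015).

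Fosl1, encoding Fra-1, a second Fos relative of this kind and itself a known AP-1 target, had 301 and 297 in ctrl and 143 and 166 in Phf8oe. These were the tightest replicates of the genes that fell. Fosl1 fell 1.93-fold (log2 fold change -0.95, SE 0.19, adjusted p = 0.022), the least of the 6, and this call too was lost with the replicate block.

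Fosb, which in neurons yields a long-lived short protein form called delta-FosB, had few reads, with 235 and 267 in ctrl and 76 and 140 in Phf8oe. It was the only gene of the 8 that was higher in ctrl replicate 2 than in ctrl replicate 1. Fosb fell 2.41-fold (log2 fold change -1.27, SE 0.3, adjusted p = 0.0395), and this call was lost without robust variance moderation and with the replicate block.

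The 4 Fos genes together held 12806 and 10758 normalized counts in ctrl and 3411 and 5358 in Phf8oe. Fos supplied 90.5% and 89.5% of that sum in ctrl and 88.6% and 89.1% in Phf8oe. Fosl1 supplied 2.35% and 2.76% in ctrl and 4.19% and 3.1% in Phf8oe. The sum thus moved with Fos, while the Fosl1 share lay higher in both Phf8oe libraries; these shares are of counts and not of molecules.

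Jun, the central partner in AP-1 and the substrate of the JNK kinases, had 23351 and 19248 in ctrl and 8251 and 11681 in Phf8oe. Both Phf8oe libraries lay well under both ctrl libraries. Jun fell 2.16-fold (log2 fold change -1.11, SE 0.18, adjusted p = 0.0211), a call lost with the replicate block.

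Junb, a weaker activator that can oppose Jun, had 4202 and 3693 in ctrl and 1245 and 1876 in Phf8oe. The groups were again apart, with the Phf8oe replicates further from each other than the ctrl replicates. Junb fell 2.58-fold (log2 fold change -1.37, SE 0.2, adjusted p = 0.0168), and with Fosl2 it was 1 of the 2 members still called with the replicate block.

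Jund, which in other cells slows growth and is present without stimulation, had 9571 and 8927 in ctrl and 9877 and 9386 in Phf8oe. The groups overlapped. Its log2 fold change was 0.06 (SE 0.1, adjusted p = 0.747), with a 95% interval from -0.17 to 0.28. That interval holds no fall of the size seen in Jun or Junb. Jund made up 25.8% and 28% of the counts of the 3 Jun genes in ctrl and 51% and 40.9% in Phf8oe, while Jun went from 62.9% and 60.4% to 42.6% and 50.9%.

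RefSeq promoter windows (GRCr8, 250 bases before to 50 after the gene start) matched 5 of the 8 genes: Fosb, Fosl1, Fosl2, Junb and Jund. The windows of Junb and Jund are shown because these relatives behaved differently. GRCr8 is not the build named for the counts. Capitals mark matches on either strand to the cyclic AMP response element TGACGTCA or its core TGACG, to CCAAT and to TATAAA. Junb lies at chr19:40080876-40081175 on the plus strand and Jund at chr16:18769722-18770021 on the minus strand, and both are written along the gene. Positions are those of the leftmost base of a match as written, counted back from the gene start.
Junb: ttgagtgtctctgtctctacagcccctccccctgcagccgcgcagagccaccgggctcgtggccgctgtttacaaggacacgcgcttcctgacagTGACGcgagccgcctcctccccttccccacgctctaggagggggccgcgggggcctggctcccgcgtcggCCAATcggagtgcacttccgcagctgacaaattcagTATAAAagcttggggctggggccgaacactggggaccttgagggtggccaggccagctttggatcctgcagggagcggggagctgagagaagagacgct
Jund: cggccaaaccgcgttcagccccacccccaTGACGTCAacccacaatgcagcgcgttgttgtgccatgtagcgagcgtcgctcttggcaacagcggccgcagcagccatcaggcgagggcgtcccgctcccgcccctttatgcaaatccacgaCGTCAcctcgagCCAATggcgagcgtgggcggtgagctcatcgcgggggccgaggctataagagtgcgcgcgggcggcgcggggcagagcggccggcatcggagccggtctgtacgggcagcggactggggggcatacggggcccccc

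Jund held the full element TGACGTCA at position -221, which 1.83% of the 33469 windows in the table hold. The full element contains the core TGACG on both strands, and Jund had a further core at -98. Junb held no full element but 1 core at -155; 21.2% of all windows hold the core. Both had a CCAAT, at -85 in Junb and -86 in Jund, as 37.5% of windows do. Junb alone of the pair had TATAAA, at -49 (14.2% of windows). The letters GGGCGG were also searched but are not marked by capitals. They had 3 matches in Jund and 0 in Junb, and 33.1% of windows hold them. Neither window held the AP-1 site TGANTCA (7.33% of windows) or a CArG box, the serum response factor motif (1.64%). These matches describe letters in a window and do not show binding.

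Atf3, a stress-induced bZIP factor that pairs with Jun proteins, had 1807 and 1566 in ctrl and 275 and 716 in Phf8oe. Both Phf8oe values were under both ctrl values, but Phf8oe replicate 2 stood 2.6-fold above Phf8oe replicate 1, a replicate difference matched or exceeded by 1.5% of tested genes. The log2 fold change was -1.92 (SE 0.54), with a 95% interval from -3.53 to -0.31, an unadjusted p of 0.031 and an adjusted p of 0.144 in limma. It was -1.23 without Phf8oe replicate 1 and -2.61 without Phf8oe replicate 2. Either of those fits drops the gap between the Phf8oe libraries and takes its spread from ctrl alone, so whether Atf3 passes there says nothing of that gap. Over the alternatives with all 4 libraries, its adjusted p ran from 0.0434 without robust moderation to 0.184 with scaling to equal totals. Atf3 passed in the former fit alone.

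Atf3 is also a gene of the integrated stress response, in which Atf4 switches on amino acid and stress genes. Of 10 other genes of that response, 0 changed in limma or limma-voom (at an unadjusted p under 0.05, 1 was lower and 1 higher), and the median log2 fold change was 0.07. Atf4 had 16401 and 14187 in ctrl, against 12436 and 14599 in Phf8oe (log2 fold change -0.18, adjusted p = 0.387). Ddit4 had 16994 and 23032 against 22887 and 22041 (log2 fold change 0.18, adjusted p = 0.468). The groups overlapped for both.

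**Figure D2:**
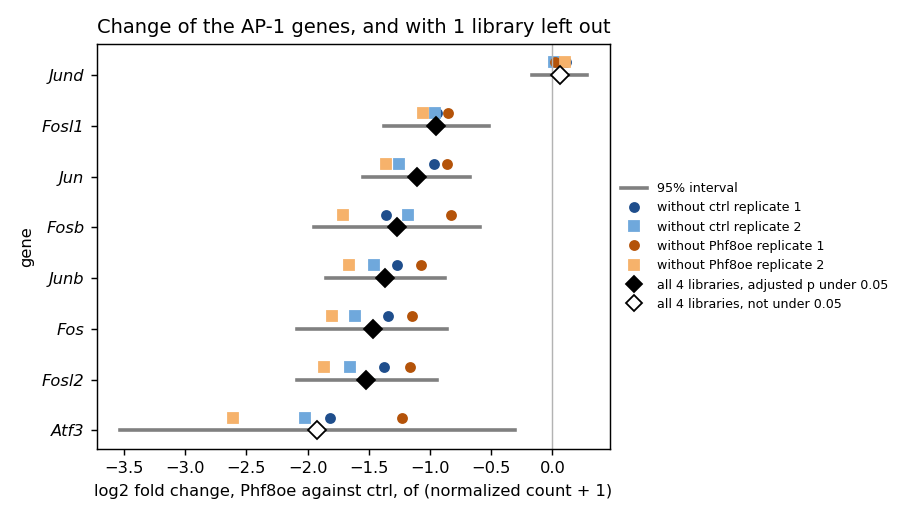
Log2 fold change of each AP-1 gene, Phf8oe against ctrl, with its 95% interval (diamond and grey line) and with each library left out in turn (small points). The genes run from Atf3 at -1.92 to Jund at 0.06, and leaving out either Phf8oe library moves Atf3 most, to -1.23 or -2.61.

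Ratios within a library do not depend on how libraries were scaled. Jund was taken as the base after its values were seen. The ratio of Fos to Jund counts was 1.21 and 1.08 in ctrl and 0.306 and 0.509 in Phf8oe, 2.9-fold lower (log2 difference -1.53, SE 0.38, n = 2 per group). The ratio of Jun to Jund was 2.44 and 2.16 in ctrl, against 0.835 and 1.24 in Phf8oe (log2 difference -1.17, SE 0.3). For all 7 other genes the ratio to Jund lay lower in Phf8oe, by 2.02-fold for Fosl1 to 3.95-fold for Atf3. Because Jund differed little between the groups, these ratios restate the counts of the 7 genes and add no separate support.

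The Phf8oe libraries were not alike. All 7 AP-1 genes other than Jund were lower in Phf8oe replicate 1 than in replicate 2, where 50.4% of all tested genes, and 58.7% of the genes called lower, were. The gap was 1.58-fold for Fos, 1.42-fold for Jun, 1.51-fold for Junb, 1.84-fold for Fosb and 1.16-fold for Fosl1. Phf8 was also lower in replicate 1, at 5650 against 10796, so within Phf8oe the library with more Phf8 held more RNA of these 7 genes, whereas between the groups Phf8oe held more Phf8 and less of them. With 2 libraries this relation cannot be tested. In ctrl, 7 of the 8 genes were higher in replicate 1, by at most 1.21-fold, where 49.1% of all tested genes were higher.

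**Figure D3:**
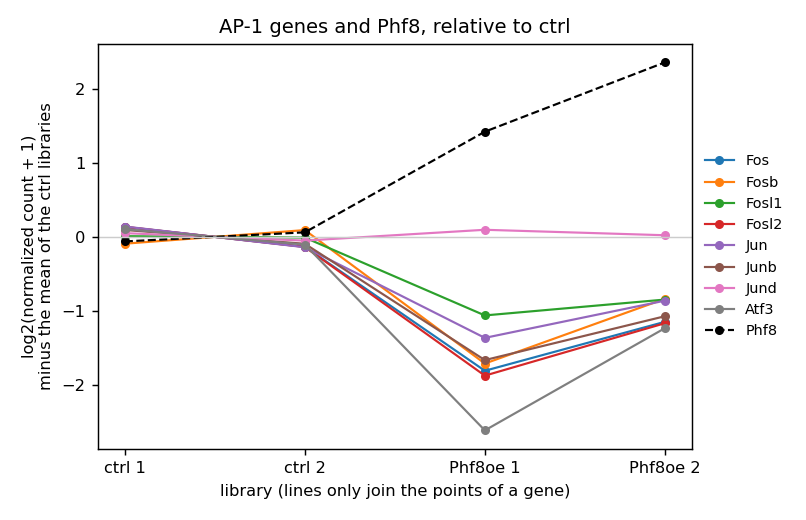
Log2(normalized count + 1) of the 8 AP-1 genes and of Phf8 in each library, minus the mean of the ctrl libraries; lines only join the points of a gene. Phf8 is highest in Phf8oe replicate 2, while 7 AP-1 genes are lowest in Phf8oe replicate 1 and Jund stays near 0.

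Genes with the profile most like Fos, Jun and Atf3 were sought among 10593 genes with a mean of at least 100, by the root mean square distance of log2 values centred on their mean over the 4 libraries. Nearest to Fos were Arid5a, an RNA-binding protein that stabilizes some messenger RNAs, Celf3, an RNA-binding protein of neural cells, and Itga7, a laminin receptor subunit (distances 0.0263, 0.05 and 0.0523). Arid5a had 1028 and 897 in ctrl and 278 and 435 in Phf8oe. Nearest to Jun were Pde1c, a calmodulin-dependent phosphodiesterase, Erbin and Cys1, a protein of cilia (0.0418, 0.0482 and 0.058). Erbin, a scaffold that binds the receptor ErbB2, had 19071 and 15798 in ctrl and 7169 and 9252 in Phf8oe. Nearest to Atf3 were S100a10, the partner of annexin A2, Col7a1, a collagen, and Egr2, a zinc finger immediate early factor (0.123, 0.136 and 0.141), each farther off than the neighbours of Fos and Jun. With 4 libraries such likeness describes these samples only.

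The genes around AP-1 were taken from lists, some of which share members. Of 26 other bZIP genes tested, 1 fell, 0 rose and 25 did not pass (median log2 fold change -0.13); at an unadjusted p under 0.05, 6 were lower and 2 higher, and limma-voom called 1 lower and 0 higher. The gene that fell was Bach2, a bZIP repressor, with 332 and 315 in ctrl, against 170 and 176 in Phf8oe (1.86-fold, adjusted p = 0.022). Jdp2, a repressor that dimerizes with Jun, had 476 and 439 against 658 and 648 (log2 fold change 0.51, adjusted p = 0.0555) and did not pass. Batf3, another Jun partner, had 52 and 60 against 28 and 24 (adjusted p = 0.0658) and did not pass either. Jdp2 and Batf3, like Cd44, Ezr, Plaur, Creb1, Srf, Mapk8, Mapk9 and Zfp36 below, were chosen after their values were seen.

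Of 24 MAP kinase cascade genes, 3 fell and 21 did not pass (median log2 fold change -0.12). Mapk10, encoding the JNK3 kinase, had 604 and 599 in ctrl and 269 and 272 in Phf8oe, a fall of 2.22-fold (adjusted p = 0.00479). Rps6ka3, encoding the ERK-activated kinase RSK2, fell 1.72-fold, and Braf, which starts the ERK cascade, fell 1.5-fold (adjusted p = 0.0471, and not called with upper quartile scaling). The genes of the other JNK kinases, Mapk8 and Mapk9, had log2 fold changes of -0.12 and -0.1 with overlapping groups.

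Of 16 genes for factors that act at the Fos and Jun promoters, Stat3 fell 1.6-fold, from 16416 and 14843 to 9367 and 10148 (adjusted p = 0.00898), and 15 did not pass. Srf, the factor that binds the serum response element of Fos, had 2621 and 2475 in ctrl, against 2370 and 2430 in Phf8oe (log2 fold change -0.09, adjusted p = 0.629). Creb1, which binds cyclic AMP response elements, stood at -0.52 (adjusted p = 0.0587). Of 15 genes on a list drawn up for the decay of AP-1 messenger RNAs or proteins, 2 fell. Trib1, a pseudokinase that brings substrates to a ubiquitin ligase, had 3862 and 3017 in ctrl, against 605 and 1082 in Phf8oe (4.21-fold, adjusted p = 0.0374). Whether Trib1 acts on AP-1 proteins was not tested. Itch, a ubiquitin ligase of Jun proteins, fell 1.35-fold (adjusted p = 0.0404, and not called with upper quartile scaling). Zfp36, encoding tristetraprolin, which destabilizes AU-rich messenger RNAs, had 390 and 369 against 279 and 224 (adjusted p = 0.0742).

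Textbook AP-1 target genes lay lower as well. Of 18 tested, 5 fell, 0 rose and 13 did not pass, and 16 of 18 lay lower (median log2 fold change -0.99); at an unadjusted p under 0.05, 12 were lower and 1 higher, and limma-voom called 6 lower and 0 higher. Timp1, an inhibitor of matrix metalloproteinases, had 3482 and 3030 in ctrl, against 1596 and 1841 in Phf8oe (1.89-fold, adjusted p = 0.00472). Hmox1, heme oxygenase, fell 2.02-fold and Vim, the intermediate filament vimentin, 1.9-fold. Ezr, a linker of membrane and actin, fell 2.37-fold, and Plaur, the urokinase receptor, 2.69-fold; both calls were lost with the replicate block (adjusted p = 0.0517 and 0.065). Cd44, the hyaluronan receptor, had 10879 and 7835 in ctrl, against 1979 and 3565 in Phf8oe. It did not pass (adjusted p = 0.0765), and it was lower in Phf8oe replicate 1 than in replicate 2, as Atf3 was.

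Of 20 other immediate early genes, 7 fell, 0 rose and 13 did not pass (median log2 fold change -0.83); at an unadjusted p under 0.05, 12 were lower and 0 higher, and limma-voom called 10 lower and 0 higher. Klf6, a zinc finger factor, had 1023 and 770 in ctrl, against 272 and 340 in Phf8oe (2.91-fold). Arc, a synaptic plasticity gene, fell 4.69-fold and Dusp6, the phosphatase of ERK, 1.86-fold. Egr2 fell 4.47-fold, and, as given above, had one of the profiles nearest to Atf3.

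**Figure D4:**
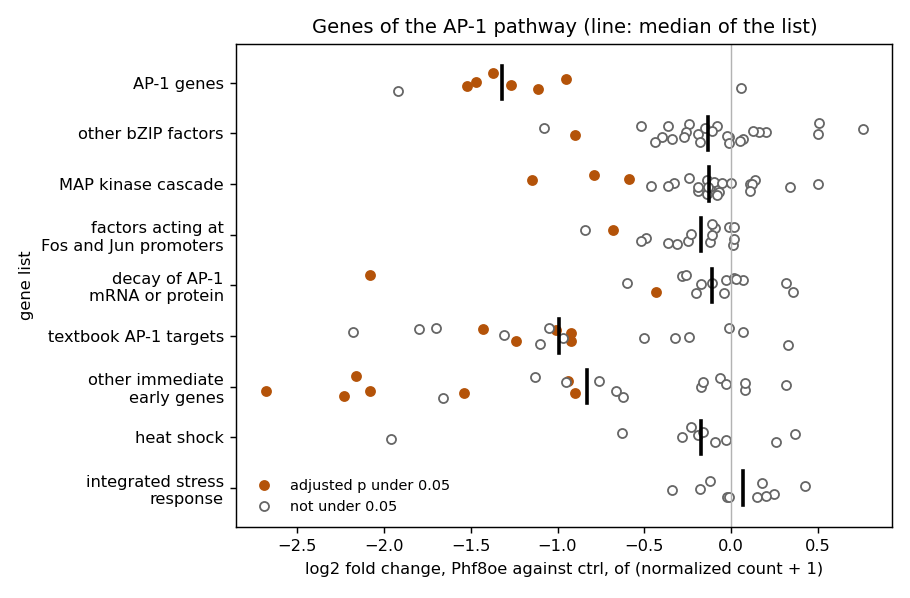
Log2 fold change, Phf8oe against ctrl, of each tested gene in 9 lists; filled points passed the threshold and the black line is the median of the list. Medians are -1.32 for the AP-1 genes, -0.99 for textbook targets and -0.83 for other immediate early genes, and between -0.18 and 0.07 for the other 6 lists.

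Heat shock genes and markers of other cell types were looked at through lists. Of 10 heat shock genes tested, 0 changed in limma or limma-voom (at an unadjusted p under 0.05, 1 was lower and 1 higher). The Hsp70 genes Hspa1a and Hspa1b were on the list too but had no deposited values, so they could not be looked at. The summed normalized counts overlapped, at 82822 and 82572 in ctrl and 76108 and 93629 in Phf8oe. Hspa8, the constitutive Hsp70, had 34288 and 32730 in ctrl and 29271 and 36658 in Phf8oe, and Hspd1, a mitochondrial chaperone, 20305 and 22227 against 23609 and 27471. Like the AP-1 genes, the heat shock sum was lower in Phf8oe replicate 1 than in replicate 2. Hspb1, chosen after its values were seen, ranged from 22 to 94 in ctrl and from 7 to 17 in Phf8oe.

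Some markers of cell state also differed between the groups. Of 8 oligodendrocyte markers 4 rose, Mbp by 1.81-fold, and 4 did not pass. Of 4 progenitor markers Pdgfra, the receptor of the progenitor mitogen PDGF-AA, fell 1.81-fold and 3 did not pass. Of those 3, Gpr17 lay higher (2070 and 2479 in ctrl, against 3679 and 2370 in Phf8oe, log2 fold change 0.38). The summed counts of the 4 came to 67876 and 67660 in ctrl, against 52027 and 42717 in Phf8oe. Of 4 tested astrocyte markers Gfap fell, from 79141 and 80736 in ctrl to 10834 and 19613 in Phf8oe. Aldh1l1 rose, but from 9 and 10 to 32 and 44, counts near the filter on low values. The sum of the astrocyte markers, nearly all Gfap and Aldoc, went from 97435 and 103426 to 34002 and 41269. Of 8 microglial markers 3 were tested, with sums of 307 and 197 in ctrl and 204 and 273 in Phf8oe; most of this was Cd68, a lysosomal protein of phagocytes, at 206 and 134 against 143 and 202. Of 6 fibroblast markers, Col1a1 was tested and fell, from 454 and 437 to 121 and 164. Of 6 neuronal markers 0 changed in limma or limma-voom (3 were lower at an unadjusted p under 0.05). Their median log2 fold change was -1.03. The sums, 12476 and 12966 in ctrl against 12568 and 10949 in Phf8oe, were nearly all Map2 and Syt1. Map2 and Syt1 had log2 fold changes of 0.07 and -0.41. Rbfox3, Gad1, Snap25 and Slc17a6, with few counts, ran from -1.21 to -1.02. The part of these differences in the AP-1 result was not tested.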

How the data were processed

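Paired reads of 150 bases, per the labels, came from 2 ctrl and 2 Phf8oe cultures. The submitters' processing notes name DESeq2, STAR 2.5.2b, Trimmomatic 0.36 and bcl2fastq 2.20, with the rat builds Rnor_6.0 and rn6; they name no gene counter, annotation release or strand setting. The deposited signal, labelled raw, is a normalized count: gaps in the values show counts multiplied by a library factor and rounded. In Phf8oe replicate 2 every one of 85 whole numbers skipped by such rounding between 10 and 300 was absent, and every one of 5 in ctrl replicate 2. A single read was worth 0.8445 and 1.0176 in ctrl, against 0.9548 and 1.4159 in Phf8oe. No count model was fitted to such values, and read numbers are estimates.

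The 14368 genes that reached 10 in 2 or more libraries were tested by limma 3.58.1 (R 4.3.3) on log2(value + 1), which understates fold changes of low genes. Group was the only term. Variances were moderated robustly along a trend, with 2 residual degrees of freedom and 6.99 prior ones at the median; intervals are 95%, tests are two-sided, and p-values were Benjamini-Hochberg adjusted over all tested genes. The procedure was run on simulated data with the same spread for every gene and library. In the real data the log2 differences between replicates had an SD of 0.319 in ctrl and 0.413 in Phf8oe. The simulation did not cover such a difference. Alternatives were other scalings, limma-voom on estimated reads, filters, pseudocounts, variance settings, replicate blocks and leaving out each library. Same-numbered replicates deviated with a correlation of -0.126 across genes, so the numbers were not taken to pair samples. Members and lists were chosen with earlier results of these data known. Named are the 8 members, Phf8, up to 3 genes per list past the threshold with the smallest p (otherwise the 2 most abundant), the 3 nearest profiles each, and genes said to be chosen later; some genes are not reported here. On GRCr8, 8 of 8 members matched RefSeq and 0 overlapped a gene of the table. Tables and plots were made with pandas 2.3.3, numpy 2.4.6 and matplotlib 3.10.9 under Python 3.11.15.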

Additional observations from a re-analysis of the deposited data

How the results depend on the processing

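The number of AP-1 genes called stayed at 6, the same genes each time, with both other scalings, limma-voom, both filters, both pseudocounts and the crossed replicate block (added after seeing the data). It was also 6 without robust moderation, where Atf3 replaced Fosb. It was 0 with no variance trend (7 at an unadjusted p under 0.05), 2 with the replicate block, and between 0 and 7 with 1 library left out. In each of these fits all 8 genes kept the sign of their log2 fold change. Leaving out a library measures the spread in the other group alone. The count over all genes was 1098, and 0 with no variance trend (3133 at an unadjusted p under 0.05), 373 with the replicate block, 2354 with the crossed block, and between 14 and 2103 with 1 library left out. Without ctrl replicate 1 it was 14, without ctrl replicate 2 160, without Phf8oe replicate 1 1754 and without Phf8oe replicate 2 2103. The replicate block also removed the calls of Fos, Fosb, Fosl1, Jun, Bach2, Braf, Trib1, Itch, Plaur, Ezr, Celf3, Pde1c and Cys1, and Phf8 passed under it (adjusted p = 0.0313). Signs turned for genes near no change: with 1 library left out, Hspa8 ran from -0.19 to 0.13 (0.001 without ctrl replicate 1), Ddit4 from -0.04 to 0.4 and Mapk9 from -0.21 to 0.01, and Hspa8 stood at 0.01 with upper quartile scaling. The cause was not tested. Fosb was the member with the fewest reads, and Atf3 the one with the largest SE.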

Other observations

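Among the 8 AP-1 genes, Fos and Fosl2 had the most similar profile over the 4 libraries, with a root mean square distance of 0.0269 on the log2 scale. Fos and Junb followed at 0.0663 and Fosl2 and Junb at 0.0913. Jun stood nearest to Junb, at 0.135. Atf3 was 0.312 from its nearest member, Fosl2, and Jund was 0.516 from its nearest, Fosl1. Among the promoter windows not shown, Fosl1 held the core TGACG at -84 and -148 from the start and GGGCGG at -187. Fosl2 held none of the motifs searched except GGGCGG, which 33.1% of all windows hold. Fosb held TATAAA at -180, on the opposite strand (14.2% of windows), and no other motif searched. Over all matched windows, TATAAA stood in Fosb and Junb, GGGCGG in Fosl1, Fosl2 and Jund, and TGACGTCA in Jund alone.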
